A study of Mus musculus with 107 samples.

Results

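The 6 B16-F10 melanoma tumors collected on day 8 of the lenvatinib (LEN) experiment were taken from the 107 mouse tumors profiled by RNA sequencing. They were chosen by their labels alone, as 3 tumors from LEN-treated mice and 3 tumors from untreated (NT) mice. The whole series covered 12 subcutaneous syngeneic tumor models, each sampled before treatment and on day 8 with and without LEN, and asked how LEN altered the tumor and its blood vessels. B16-F10 is a pigmented melanoma cell line of C57BL/6 origin. Here the cells were implanted into the right flank of female C57BL/6NCrl mice aged 7 weeks, and the experiment began when tumors measured about 100 mm3. Mice of the LEN group received LEN at 10 mg/kg by oral gavage once a day for 7 days, and NT mice received no treatment. A further 3 treatment-naive B16-F10 tumors, collected at the starting size, are given beside the others with no test, since they also differ from them in size and time of collection. The paper reports that LEN inhibited growth to varying degrees over the models. Day 8 LEN and NT tumors may therefore also differ in size, and the part of size in the changes was not tested. All tumors carried the same unmodified cell line in mice with an intact immune system, each tumor was labelled as a separate sample, and p-values measure the spread between these tumors. Values are TPM, transcript abundances with a fixed sum per tumor, listed for tumors 2, 4 and 5 of the NT group and tumors 2, 3 and 5 of the LEN group in that order.

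LEN is an oral inhibitor of receptor tyrosine kinases, chiefly the vascular endothelial growth factor (VEGF) receptors that endothelial cells (ECs) use to sprout and survive, and also the fibroblast growth factor (FGF) receptors, PDGFRα, KIT and RET. Tumor cells, often under low oxygen, release VEGF-A, and ECs at the tip of a sprout respond through KDR (VEGFR2) and switch on a set of tip cell genes. B16 tumors are known as poorly infiltrated by lymphocytes and as low in surface MHC class I, the molecules that show peptides to CD8+ T cells, until interferon induces them.

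The tumors matched their labels. The melanocyte genes Tyr, Tyrp1, Dct, Pmel, Mlana and Sox10 were at 172 TPM or more in all 9 B16-F10 tumors and at 2.22 TPM or less in all 98 tumors of the other models. Mitf, the lineage transcription factor, was at 277 to 422 TPM against at most 19.8 TPM elsewhere. The tumor most correlated with each of the 9 B16-F10 tumors belonged to its own group. Protein-coding genes took 54.6 to 58.4% of the TPM in NT tumors and 59.1 to 60.6% in LEN tumors. Transcripts of the mitochondrial genome took 6.62 to 7.61% in NT and 11.3 to 12.5% in LEN tumors, while the signal recognition particle RNA Rn7s1 took 10.5 to 12.9% in NT and 6.89 to 7.32% in LEN. TPM values keep no record of read depth, so the depth was unknown. These are whole tumors, in which fewer cells of a type and less RNA per cell cannot be told apart.

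LEN changed 1742 of 15839 genes tested (11%) at an adjusted p under 0.05, of which 384 were lower (2.42%) and 1358 were higher (8.57%) than in NT tumors. By more than 1 on the log2(TPM + 1) scale, 57 genes were lower and 631 were higher. The groups did not overlap for 1788 genes with lower LEN values (11.3%) and for 3216 genes with higher ones (20.3%). Changes on this scale understate the fold of weakly expressed genes. Among protein-coding genes, 315 were lower and 1300 higher, and the median change of all genes was 0.02. With TPM rescaled to the total of the protein-coding genes, 967 genes were lower and 1223 higher. The count depended on which tumors were kept: it was 749 without NT tumor 2, 1062 without NT tumor 5, 755 without LEN tumor 2, 923 without LEN tumor 3, 681 without LEN tumor 5 and 1581 without NT tumor 4.

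**Figure D1:**
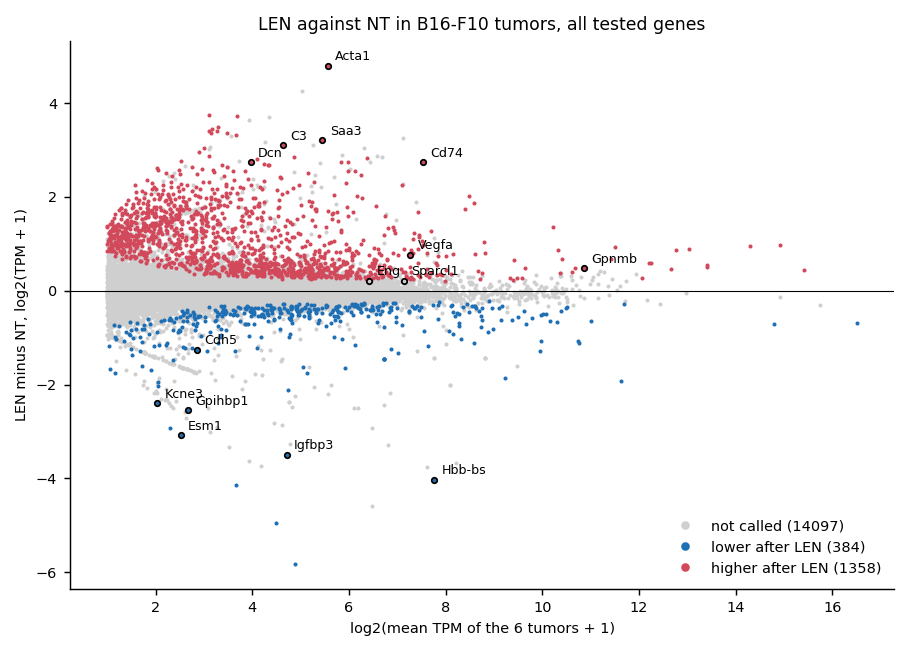
Change after LEN against expression level for the 15839 genes tested; the x axis is log2 of the mean TPM of the 6 tumors plus 1, the y axis is the LEN minus NT difference on the log2(TPM + 1) scale, and blue and red mark genes called lower (384) and higher (1358). The vessel genes Igfbp3, Esm1, Kcne3 and Gpihbp1 lie among the largest falls and the skeletal muscle gene Acta1 is the largest rise among the labelled genes.

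The microvessel density (MVD) gene score, the mean log2(TPM + 1) of 6 EC genes, was lower in LEN tumors. It was 3.65, 3.37 and 3.56 in NT tumors and 3.04, 3.07 and 3.11 in LEN tumors, with no overlap, and 3.72, 3.74 and 3.70 in treatment-naive tumors. The difference between LEN and NT was -0.45 (SE 0.10). It passed limma's test (p = 0.00239), and the exact 2-sided permutation p was 0.1, the smallest that 3 against 3 tumors allow. The 6 genes did not move together. Cdh5, the adhesion molecule of endothelial junctions (ENSMUSG00000031871, chromosome 8, 104101625 to 104144511, plus strand of GRCm38), was at 10.5, 7.37 and 10.1 TPM in NT tumors and at 3.19, 3.50 and 3.12 TPM in LEN tumors, a change of -1.26 (SE 0.14, adjusted p = 0.00401). Kdr, the main signaling receptor for VEGF-A, was at 5.58, 3.59 and 5.20 TPM in NT and at 1.44, 1.48 and 1.78 TPM in LEN tumors (-1.16, SE 0.17, adjusted p = 0.00948). Pcdh12, an endothelial protocadherin, changed by -0.99 (SE 0.21, adjusted p = 0.0286). For these 3 genes every LEN tumor lay below every NT tumor.

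The 2 most abundant genes of the score did not fall. Eng, a TGF-β co-receptor, was at 77.8, 83.5 and 73.8 TPM in NT tumors and at 96.0, 87.5 and 89.8 TPM in LEN tumors (0.22, SE 0.07, adjusted p = 0.108). Sparcl1, a secreted matrix protein, was at 137, 123 and 131 TPM in NT tumors and at 148, 149 and 154 TPM in LEN tumors (0.21, SE 0.06, adjusted p = 0.0771). Neither passed the test, although all 3 LEN tumors were above all 3 NT tumors. Tek, the angiopoietin receptor, was at 0.19 to 0.40 TPM in NT and at 0.52 to 0.64 TPM in LEN tumors, under the minimum mean of 1 TPM for testing. Both abundant genes were above the median of the other models in B16-F10. The 9 B16-F10 tumors held 73.8 to 96.0 TPM of Eng, against a median of 17.9 TPM over the 98 other tumors. They held 108 to 154 TPM of Sparcl1, against a median of 18.2 TPM. The highest values among the other tumors were 78.4 TPM of Eng and 311 TPM of Sparcl1, so neither gene was highest in B16-F10 without overlap. Cdh5 was at 3.12 to 12.1 TPM in B16-F10 and at a median of 13.6 TPM elsewhere. The change of the score was -0.59 without Eng and -0.59 without Sparcl1, against -0.29 without Cdh5, the smallest change when any 1 gene was left out.

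**Figure D2:**
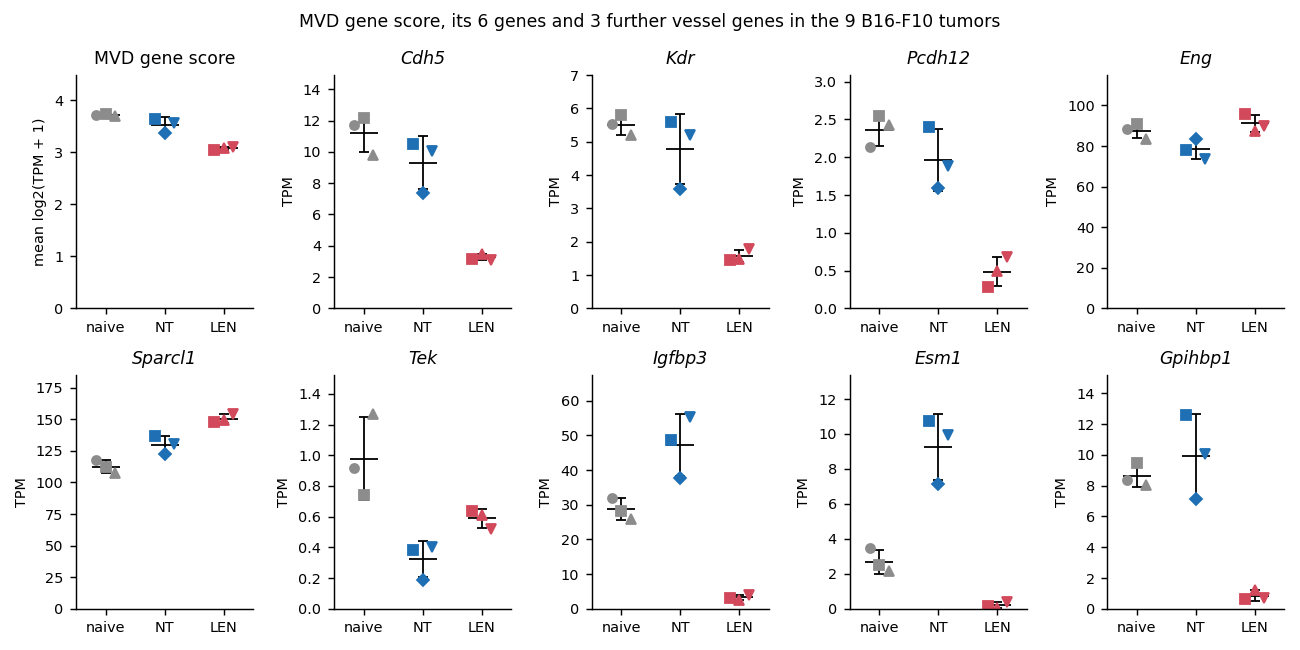
MVD gene score in mean log2(TPM + 1) and TPM of its 6 genes and of Igfbp3, Esm1 and Gpihbp1 in the 3 treatment-naive, 3 NT and 3 LEN tumors; each point is a tumor, its shape gives the tumor number (circle 1, square 2, triangle pointing up 3, diamond 4, triangle pointing down 5), and bars are the mean and SD. Cdh5, Kdr, Pcdh12, Igfbp3, Esm1 and Gpihbp1 are lower in all LEN tumors, whereas Eng, Sparcl1 and Tek are not.

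Across a wider list of EC identity and junction genes, 7 of 21 tested members were lower and 0 were higher (median -0.61), against 2.42% and 8.57% of all genes, and 15 were below in every LEN tumor, against 11.3% of all genes. Beside the score genes, Emcn, a sialomucin of capillaries and veins, was at 3.01, 4.17 and 3.35 TPM in NT and at 1.31, 0.68 and 0.59 TPM in LEN tumors (-1.29, SE 0.20, adjusted p = 0.0118). The pan-endothelial gene Pecam1, chosen after its value was seen, had a change of -0.38 (adjusted p = 0.147). Leaving out each tumor in turn left 5 to 9 members called lower, and 1 was called higher without NT tumor 4.

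Endothelial tip cell genes were among the genes that fell most. Of 13 tested, 7 were lower and 0 higher, against 2.42% and 8.57% of all genes. In every LEN tumor 8 were below all NT tumors and 3 above, against 11.3% and 20.3% of all genes. Leaving out each tumor in turn left 4 or 5 lower, with 1 called higher without NT tumor 4. Esm1, a secreted proteoglycan of tip cells (chromosome 13, 113209659 to 113218098, plus strand), was at 10.7, 7.14 and 9.92 TPM in NT tumors and at 0.17, 0.04 and 0.41 TPM in LEN tumors (-3.08, SE 0.20, adjusted p = 0.000811). It was at 3.46, 2.48 and 2.14 TPM in treatment-naive tumors, between the NT and LEN groups. Kcne3, a potassium channel subunit of tip cells, was at 6.54, 4.72 and 6.29 TPM in NT and at 0.16, 0.84 and 0 TPM in LEN tumors (-2.40, SE 0.26). Nid2, a basement membrane nidogen, fell by 1.70 on the log2 scale and Dll4, the Notch ligand of tip cells, by 1.38. Dll4 was the sole member called among 7 tested Notch pathway and arterial genes, a list with 3 lower and 1 higher without NT tumor 4, 1 lower without any other single tumor, and 5 lower in a fit of all 72 day 8 tumors of the 12 models. Its partners Notch1 (0.48, adjusted p = 0.298), Notch4 (-0.73, adjusted p = 0.242) and Jag1 (-0.10, adjusted p = 0.702) did not pass.

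Igfbp3, which encodes a binding protein for insulin-like growth factors (chromosome 11, 7206086 to 7213923, minus strand), fell in all 3 LEN tumors. It was at 48.8, 37.7 and 55.4 TPM in NT tumors and at 3.18, 2.55 and 4.06 TPM in LEN tumors (-3.50, SE 0.18, adjusted p = 0.000657), and at 26.0 to 32.1 TPM in treatment-naive tumors. Gpihbp1, which carries lipoprotein lipase to the capillary wall, was at 12.6, 7.16 and 10.1 TPM in NT and at 0.63, 1.24 and 0.69 TPM in LEN tumors (-2.55, SE 0.22, adjusted p = 0.00246). Its cargo Lpl, which adipocytes and macrophages also make, moved the other way, from 3.42, 4.30 and 2.66 TPM in NT to 12.6, 12.7 and 7.64 TPM in LEN tumors (1.41, adjusted p = 0.0117). These were the 2 members called among 7 tested genes of capillary lipid uptake, 1 lower and 1 higher. The shares of all genes were 2.42% and 8.57%. Trp53i11, a p53-inducible gene, fell by 1.47 and was lower after LEN in all 11 other models (mean -0.93).

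Among the genes that fell most, several are not known as vessel genes. Cck, a peptide hormone gene, was at 40.1, 86.3 and 34.4 TPM in NT and at 13.1, 10.6 and 18.9 TPM in LEN tumors (-1.76, adjusted p = 0.027). Lmo1, a transcriptional cofactor, fell by 1.28 and Zfp618, a zinc finger gene, by 1.22. The red cell gene Hbb-bs, a β-globin, was at 86.0, 1095 and 83.6 TPM in NT and at 11.1, 10.1 and 12.8 TPM in LEN tumors (-4.03, SE 0.94, adjusted p = 0.0408). Most of that difference in TPM lay in NT tumor 4, but the other NT tumors were also above all LEN tumors. The α-globin gene Hba-a2 showed the same levels of 79.2, 983 and 71.9 TPM against 7.54, 14.5 and 16.7 TPM and did not pass (-3.76, adjusted p = 0.056). Hbb-bs was the sole member called among 7 tested red cell and platelet genes, against 2.42% of all genes called lower. This call was lost on leaving out any 1 tumor but NT tumor 4, without which 3 members were called.

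Of the receptors that LEN inhibits, 6 of 10 passed the minimum, 3 were lower and 2 were higher, against 2.42% and 8.57% of all genes. Flt1 (VEGFR1), which binds VEGF-A and PlGF, was at 6.49, 6.78 and 8.56 TPM in NT and at 2.47, 2.22 and 3.08 TPM in LEN tumors (-1.20, SE 0.15, adjusted p = 0.00496), and Flt4 (VEGFR3), the VEGF-C receptor, changed by -0.74 (adjusted p = 0.0441). Fgfr1 was at 3.99, 2.79 and 3.71 TPM in NT and at 6.72, 8.20 and 10.7 TPM in LEN tumors (1.07, SE 0.18, adjusted p = 0.0151). Pdgfra, which fibroblasts express, was at 1.50, 0.73 and 0.93 TPM in NT and at 3.84, 2.95 and 2.68 TPM in LEN tumors (1.03, SE 0.20, adjusted p = 0.0238). The 3 receptors called lower were VEGF receptors and the 2 called higher were not, and leaving out 1 tumor at a time left 2 lower and 1 or 2 higher. Kit, which melanocytes and mast cells use, was at 4.31 to 5.44 TPM in NT and at 2.57 to 4.72 TPM in LEN tumors and did not pass (-0.45, adjusted p = 0.209). Fgfr2, Fgfr3 and Fgfr4 were at 1.01 TPM or less in all 6 tumors. Ret, also under the minimum level, was at 0.05, 0.06 and 0.02 TPM in NT and at 0.55, 0.46 and 0.48 TPM in LEN tumors, with no overlap (0.52, adjusted p = 0.0111 with no minimum level). The fit of 72 tumors called 3 receptors lower and 3 higher.

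Angiogenic and growth factor ligands moved in both directions. Vegfa, the main hypoxia-driven angiogenic factor, was at 97.4, 127 and 115 TPM in NT tumors and at 162, 193 and 227 TPM in LEN tumors (0.77, SE 0.15, adjusted p = 0.0214), and at 56.6 to 76.7 TPM in treatment-naive tumors. Pgf (PlGF), which among the VEGF receptors binds FLT1, was at 5.85, 9.25 and 8.26 TPM in NT and at 21.4, 25.9 and 26.0 TPM in LEN tumors (1.55, SE 0.16, adjusted p = 0.00355). The 2 ligands called lower are ones that ECs make. Pdgfb, which recruits pericytes, changed by -0.72 (adjusted p = 0.0448), and Angpt2, a TEK ligand, changed by -0.53 (adjusted p = 0.0207). In all, 9 of 14 ligands were tested and 3 were higher and 2 lower, against 8.57% and 2.42% of all genes. The fit of 72 tumors called 5 higher and 1 lower, and leaving out 1 tumor at a time left 1 to 3 higher and 0 or 1 lower.

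Pericyte and smooth muscle genes were split, with 4 of 11 lower and 2 higher, against 2.42% and 8.57% of all genes. Rgs5, a regulator of G protein signaling in pericytes, was at 11.6, 8.03 and 12.9 TPM in NT and at 3.24, 3.14 and 5.24 TPM in LEN tumors (-1.28, SE 0.22, adjusted p = 0.0156). Abcc9, a subunit of the potassium channel of pericytes, changed by -1.25 (adjusted p = 0.0241). Leaving out any tumor but NT tumor 4 reduced the 4 lower calls to 1 or 2. The 2 genes that rose are shared with other cells: Des, an intermediate filament that skeletal muscle also expresses, was at 3.46, 2.51 and 3.59 TPM in NT and at 26.2, 23.6 and 20.6 TPM in LEN tumors (2.55, SE 0.14, adjusted p = 0.000657), and Anpep, an aminopeptidase also of myeloid cells and fibroblasts, changed by 1.23 (adjusted p = 0.00614). In the vascular basement membrane, Nid2 and the collagen IV chain Col4a2 (-0.70, adjusted p = 0.0138) were lower and Sparc, a matrix glycoprotein, was higher (0.77, adjusted p = 0.00386), while 10 of 13 members did not pass. Leaving out 1 tumor at a time gave 1 to 3 lower basement membrane genes and 1 higher. Of 7 lymphatic genes 4 were tested. Prox1, the lymphatic master regulator, was at 1.92 to 2.36 TPM in NT and at 1.65 to 1.90 TPM in LEN tumors, with no overlap (-0.18, adjusted p = 0.486). Pdpn (podoplanin), which fibroblasts also make, was at 14.9, 15.99 and 13.8 TPM in NT and at 24.4, 17.6 and 19.8 TPM in LEN tumors, also with no overlap, and did not pass (0.43, adjusted p = 0.0788). Flt4 was the sole call among 4 tested, a call lost on leaving out any 1 tumor.

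Of the hypoxia-induced genes, 12 of 24 tested members were higher and 0 lower against 8.57% of all genes, with a median change of 0.48 and a summed level of 1193 to 1519 TPM in NT and 1777 to 2286 TPM in LEN tumors. Car9, a carbonic anhydrase of hypoxic cells, was at 97.2, 128 and 125 TPM in NT and at 209, 246 and 282 TPM in LEN tumors (1.07, SE 0.14, adjusted p = 0.00668). Angptl4 (1.18), a lipoprotein lipase inhibitor, Loxl2 (1.14), a collagen cross-linking enzyme, and Egln3 (0.99), an oxygen-sensing prolyl hydroxylase, rose as well. Of the glycolytic enzymes and transporters, 5 of 17 were higher and 0 lower. Slc16a3, the lactate exporter, was at 103, 118 and 101 TPM in NT and at 222, 252 and 245 TPM in LEN tumors (1.15, SE 0.08, adjusted p = 0.00151), whereas the enzyme Gpi1 rose from 628, 729 and 636 TPM to 831, 929 and 1029 TPM (0.48, adjusted p = 0.0264). In treatment-naive tumors Slc16a3 was at 62.4 to 87.5 TPM and Car9 at 46.2 to 65.0 TPM, below both day 8 groups. Leaving out 1 tumor at a time left 5 to 15 hypoxia genes and 1 to 9 glycolytic genes called higher, the highest counts being those without NT tumor 4. Without NT tumor 2, NT tumor 5, LEN tumor 2, LEN tumor 3 or LEN tumor 5 the hypoxia count was 5 to 8 and the glycolysis count 1 to 3.

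The promoters of these genes were read from RefSeq on GRCm38.p6 as 250 bases before to 50 bases after the start, because the hypoxia-inducible factors are known to bind the core ACGTG. The letters ACGTG were searched on both strands (CACGT on the other strand, which the E-box CACGTG also holds) and were found in 28 of 56 promoters (50%) of the 37 hypoxia or glycolysis genes with an entry, against 19.6% of all 32851 promoters. A match is a description of the sequence and not a measured binding site. The promoters of Slc16a3 (chr11:120948817-120949116, plus strand), Car9 (chr4:43506776-43507075, plus strand) and Egln3 (chr12:54203825-54204124, minus strand) are shown, with the match in capitals. These 3 genes were picked from those called higher that hold a match. Among the promoters of all 12 genes called higher with an entry, 11 of 19 (57.9%) held one.
Slc16a3: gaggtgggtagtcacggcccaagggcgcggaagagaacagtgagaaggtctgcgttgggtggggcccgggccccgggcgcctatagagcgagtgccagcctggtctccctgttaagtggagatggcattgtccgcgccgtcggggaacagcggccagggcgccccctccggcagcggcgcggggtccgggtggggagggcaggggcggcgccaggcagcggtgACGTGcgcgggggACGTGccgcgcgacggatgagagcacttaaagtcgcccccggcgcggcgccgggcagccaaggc
Car9: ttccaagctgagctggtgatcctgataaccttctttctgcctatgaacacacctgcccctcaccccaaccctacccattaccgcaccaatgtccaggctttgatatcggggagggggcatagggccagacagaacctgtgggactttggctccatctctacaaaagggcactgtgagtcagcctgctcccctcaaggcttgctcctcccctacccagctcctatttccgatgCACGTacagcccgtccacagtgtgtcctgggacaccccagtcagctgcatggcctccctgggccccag
Egln3: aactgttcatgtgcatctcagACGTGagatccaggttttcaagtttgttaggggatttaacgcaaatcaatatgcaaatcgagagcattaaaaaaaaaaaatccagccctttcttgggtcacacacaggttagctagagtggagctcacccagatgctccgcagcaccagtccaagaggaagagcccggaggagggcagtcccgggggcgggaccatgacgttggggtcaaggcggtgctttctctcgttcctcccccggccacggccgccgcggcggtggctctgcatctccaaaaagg
Slc16a3 holds 2 matches and Car9 and Egln3 hold 1 each, the one of Car9 in the opposite orientation.

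Most tested antigen presentation genes rose. For MHC class I presentation, 12 of 15 tested members were higher (median 2.02), against 8.57% of all genes, and all 15 were above in every LEN tumor, with a summed level of 953, 2040 and 832 TPM in NT tumors and 4759, 2964 and 3670 TPM in LEN tumors. H2-T23, a non-classical class I gene, was at 8.74, 30.0 and 8.25 TPM in NT and at 134, 66.1 and 92.2 TPM in LEN tumors (2.75, SE 0.49, adjusted p = 0.018). Tap1, a subunit of the peptide transporter, was at 13.9, 47.2 and 9.42 TPM in NT and at 130, 71.6 and 91.4 TPM in LEN tumors (2.29, SE 0.55, adjusted p = 0.044). For MHC class II presentation, 7 of 8 tested members were higher (median 2.37). Cd74, the invariant chain, was at 32.0, 117 and 22.7 TPM in NT and at 406, 233 and 291 TPM in LEN tumors (2.74, SE 0.57, adjusted p = 0.0287), and H2-Aa, a class II α chain, changed by 2.83 (adjusted p = 0.0251). NT tumor 4 was the highest NT tumor in each of these genes and still lay below all LEN tumors. Its class I sum was above those of the treatment-naive tumors (1004 to 1455 TPM), and its class II sum of 279 TPM lay among theirs (232 to 325 TPM). Without NT tumor 4, all 15 class I and all 8 class II genes tested were called higher. Without NT tumor 2, NT tumor 5, LEN tumor 2, LEN tumor 3 or LEN tumor 5, between 1 and 4 class I genes and 0 class II genes were.

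Promoters of the MHC genes are shown because they are known to share a Y box, the inverted CCAAT motif. The letters CTGATTGG (CCAATCAG on the other strand, which contains CCAAT) were found on either strand in 11 of 22 promoters (50%) of the 20 class I or class II genes with an entry, against 4.1% of all 32851 promoters. The match is in capitals for H2-Aa (chr17:34287774-34288073, minus strand), H2-Eb1 (chr17:34305617-34305916, plus strand), H2-T23 (chr17:36032652-36032951, minus strand) and Tap1 (chr17:34187306-34187605, plus strand), of which H2-T23 and Tap1 hold it in the opposite orientation.
H2-Aa: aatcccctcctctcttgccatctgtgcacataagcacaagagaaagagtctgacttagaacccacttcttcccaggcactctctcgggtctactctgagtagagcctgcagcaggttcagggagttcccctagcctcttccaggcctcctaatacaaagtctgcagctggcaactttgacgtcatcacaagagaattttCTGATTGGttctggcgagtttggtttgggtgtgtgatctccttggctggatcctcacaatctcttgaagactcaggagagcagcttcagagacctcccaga
H2-Eb1: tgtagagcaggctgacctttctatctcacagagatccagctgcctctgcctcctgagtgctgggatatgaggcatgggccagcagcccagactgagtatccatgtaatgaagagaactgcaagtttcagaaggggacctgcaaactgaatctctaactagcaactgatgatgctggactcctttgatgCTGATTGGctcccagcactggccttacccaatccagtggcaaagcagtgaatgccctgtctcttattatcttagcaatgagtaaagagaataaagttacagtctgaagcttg
H2-T23: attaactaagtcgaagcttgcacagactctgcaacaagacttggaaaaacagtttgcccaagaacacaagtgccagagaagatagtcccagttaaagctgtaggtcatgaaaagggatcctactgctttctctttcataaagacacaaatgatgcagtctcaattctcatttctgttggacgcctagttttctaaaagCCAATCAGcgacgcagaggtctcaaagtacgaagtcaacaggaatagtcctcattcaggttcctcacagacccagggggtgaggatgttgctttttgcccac
Tap1: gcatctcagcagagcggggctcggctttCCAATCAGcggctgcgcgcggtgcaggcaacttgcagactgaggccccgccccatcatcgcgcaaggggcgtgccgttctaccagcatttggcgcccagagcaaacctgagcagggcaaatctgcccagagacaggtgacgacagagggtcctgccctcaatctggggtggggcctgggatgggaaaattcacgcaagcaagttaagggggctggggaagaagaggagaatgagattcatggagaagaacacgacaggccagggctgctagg
These 4 genes were picked from those called higher after LEN that hold a match, so both traits follow from the choice. Among the promoters of all 14 genes called higher with an entry, 9 of 16 (56.2%) held one.

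Some interferon-induced genes rose. Of 26 type I interferon-stimulated genes 8 were called higher (median 1.53), against 8.57% of all genes, and 24 were above in every LEN tumor, against 20.3% of all genes. Of 17 tested interferon γ-induced genes 6 were called higher (median 2.47), and all 17 were above in every LEN tumor. Cxcl10, a T cell-attracting chemokine, was at 13.8, 55.9 and 11.5 TPM in NT and at 157, 105 and 107 TPM in LEN tumors (2.47, SE 0.55, adjusted p = 0.0349). Irf1, a transcription factor, rose by 2.01 and Isg15, a ubiquitin-like modifier, from 10.5, 31.9 and 9.69 TPM to 62.5, 46.6 and 56.3 TPM (1.81, adjusted p = 0.039). NT tumor 4 again stood above the other NT tumors, with a summed level of 784 TPM of interferon γ-induced genes against 177 and 104 TPM in the others and 1132 to 2027 TPM in LEN tumors. Without it 25 and 17 genes of the 2 lists were called higher, and without any other single tumor 0 or 1. The fit of 72 tumors, whose spread is shared by all 12 models, also called 25 and 17 of them higher.

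Genes of most immune cell types also rose. Of 15 tested T cell genes 13 were higher (median 1.28), and of 6 NK cell and cytotoxic genes 5 were, against 8.57% of all genes. Cd3e, a chain of the T cell receptor complex, was at 0.35, 1.44 and 0.14 TPM in NT and at 5.28, 3.12 and 3.85 TPM in LEN tumors (1.69, SE 0.32, adjusted p = 0.0211). Gzmb, the cytotoxic protease granzyme B, was at 0.24, 1.64 and 0.26 TPM in NT and at 7.01, 4.68 and 6.98 TPM in LEN tumors (2.15, SE 0.33, adjusted p = 0.0102). The levels were low in NT tumors, and without NT tumor 4, 12 T cell and 6 cytotoxic genes were called, against 5 to 7 and 3 without any other single tumor. Macrophage genes had the highest summed level of the immune cell lists, at 818 to 870 TPM summed in NT and 1221 to 1415 TPM in LEN tumors. Of 17 tested, 15 were higher (median 1.56), and the count was 14 with any 1 tumor left out. C1qb, a complement subunit made by macrophages, was at 24.9, 31.5 and 18.1 TPM in NT and at 97.5, 64.7 and 80.3 TPM in LEN tumors (1.68, SE 0.22, adjusted p = 0.00614). Spp1 (osteopontin) rose by 1.70 with little spread (SE 0.09).

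Inflammatory monocyte genes rose in 6 of 7 cases, against 8.57% of all genes. Ccr2, the receptor that brings monocytes out of the marrow, was at 0.89, 2.42 and 0.61 TPM in NT tumors and at 11.7, 11.1 and 10.9 TPM in LEN tumors (2.48, SE 0.27, adjusted p = 0.00378), and at 5.31 to 7.00 TPM in treatment-naive tumors. Ly6c2, which marks these cells, changed by 2.63 (adjusted p = 0.0178). Of the dendritic cell genes 4 of 7 were higher, among them Irf8 (2.42) and Ccr7 (1.45). Neutrophil genes and CXCR2 chemokines moved less evenly: 2 of 8 were higher, S100a9 (1.39) and Mmp9 (1.24), and Il1b overlapped between the groups, with 0.86, 10.6 and 1.61 TPM in NT and 8.45, 11.9 and 7.24 TPM in LEN tumors. Both tested B and plasma cell genes, Ighm (1.65) and Igkc (1.00), were higher, from 2.32 TPM or less in NT tumors. Leaving out 1 tumor at a time left 4 to 7 monocyte, 1 to 5 dendritic cell, 0 to 5 neutrophil and 0 or 1 B cell genes called, the highest counts again without NT tumor 4. Of 4 tested leukocyte adhesion genes, which ECs and other cells express, Icam1 (1.63, adjusted p = 0.00754) and Selp (1.42, adjusted p = 0.0114) rose, while Vcam1 (0.40, adjusted p = 0.45) and Icam2 (-0.38, adjusted p = 0.224) did not pass. This list had 1 higher without LEN tumor 3 or LEN tumor 5 and 3 higher without NT tumor 4 or NT tumor 5.

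**Figure D3:**
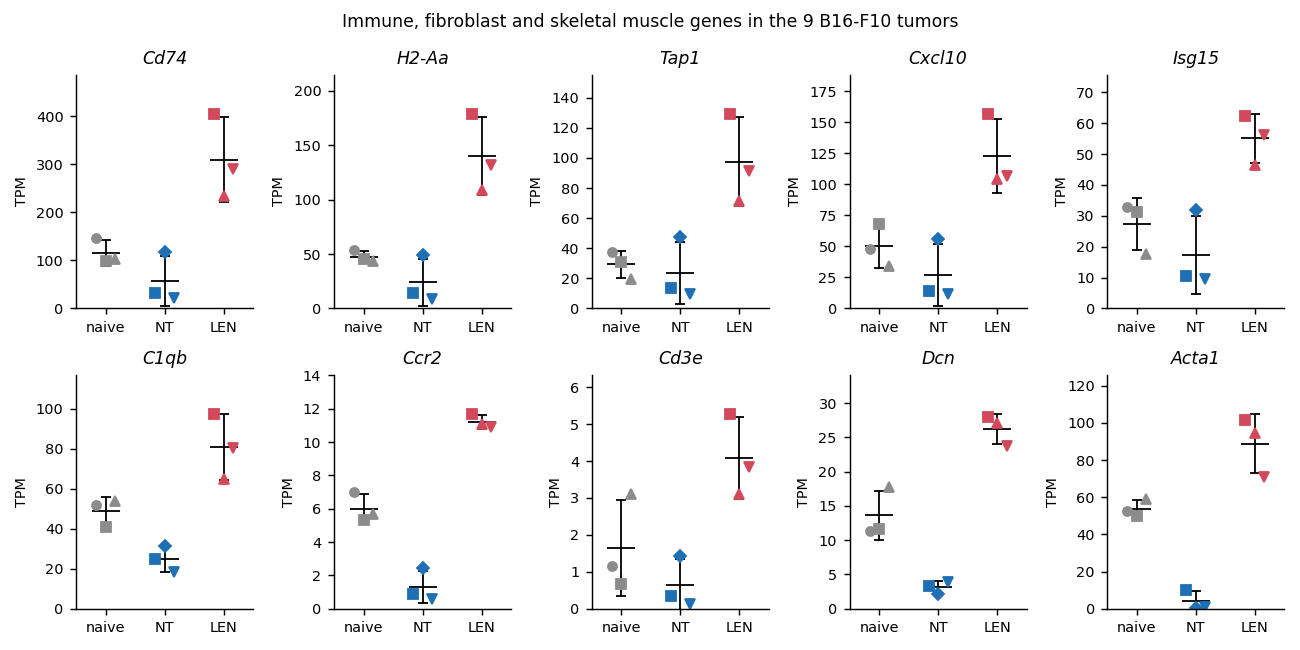
TPM of 10 immune, fibroblast and skeletal muscle genes in the 3 treatment-naive, 3 NT and 3 LEN tumors; points are tumors, their shape gives the tumor number as in the plot of vessel genes, and bars are the mean and SD. NT tumor 4 (diamond) is the highest NT tumor for Cd74, H2-Aa, Tap1, Cxcl10, Isg15, C1qb, Ccr2 and Cd3e and the lowest for Dcn and Acta1, and every LEN tumor lies above every NT tumor.

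Fibroblast and interstitial matrix genes were higher in 17 of 18 tested cases and lower in 0 (median 1.25), against 8.57% of all genes, and the count was 13 to 17 with any 1 tumor left out. Dcn (decorin), a collagen-binding proteoglycan, was at 3.35, 2.21 and 3.89 TPM in NT and at 27.9, 27.0 and 23.8 TPM in LEN tumors (2.73, SE 0.16, adjusted p = 0.000751). Col3a1, a fibrillar collagen, was at 52.3, 37.5 and 49.9 TPM in NT and at 237, 197 and 238 TPM in LEN tumors (2.25, SE 0.14, adjusted p = 0.000751). Lox, which cross-links collagen, and Lum, a proteoglycan, rose by 2.08 and 1.74. Treatment-naive tumors lay between the groups, with 108 to 164 TPM of Col3a1.

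Markers of tissue around the tumor moved in the same tumors. Of the 12 protein-coding genes with the largest rises, 8 are genes of skeletal muscle contraction or energy use (Acta1, Tnnt3, Tnni2, Tnnc2, Myl1, Myh4, Ckm and Atp2a1, from 3.35 to 4.80) and 2 are adipocyte genes (Cfd and Car3, 3.31 and 3.05). The other 2 were Saa3 (3.21), an acute phase gene, and C3 (3.11), a complement component. All 11 tested skeletal muscle genes were higher (median 3.37), against 8.57% of all genes, with a summed level of 30.4, 3.22 and 7.55 TPM in NT tumors, 273, 283 and 182 TPM in LEN tumors and 133 to 169 TPM in treatment-naive tumors, and the count was 10 or 11 with any 1 tumor left out. Acta1, the actin of skeletal muscle, was at 10.3, 0.32 and 1.19 TPM in NT and at 101, 94.3 and 70.9 TPM in LEN tumors (4.80, SE 0.73, adjusted p = 0.0104). Of 5 tested adipocyte genes 4 were higher, with a summed level of 2.35 to 6.01 TPM in NT and 24 to 63.9 TPM in LEN tumors, among them Adipoq (adiponectin, 1.93) and Cfd (adipsin, 3.31). All 4 tested mast cell genes and 3 of 4 Schwann cell and nerve genes were higher, and without LEN tumor 2 the adipocyte, mast cell and Schwann cell counts fell to 2, 1 and 0. No keratinocyte gene passed the test (0 of 7 by limma, 0 also at an unadjusted p under 0.05). Their summed level was 126 TPM in LEN tumor 2 but 7.43 and 7.59 TPM in the other LEN tumors and 3.68 to 5.39 TPM in NT tumors, and all 7 tested ones but Sbsn were at 0.11 TPM or less in every NT and treatment-naive tumor.

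The tumors were ordered alike in some of these lists and not in others. In the NT group, tumor 4 had the lowest muscle and the lowest fibroblast sum (317 TPM against 350 and 394 TPM) and the highest MHC class II sum. In the LEN group, tumor 5 had the lowest muscle (182 TPM), adipocyte and mast cell (8.48 TPM) sums and the highest fibroblast sum (1164 TPM). In treatment-naive tumors the muscle sum was above that of every NT tumor and the macrophage sum, at 873 to 1006 TPM, was likewise above. The part of adjacent muscle, fat, skin or nerve in the higher fibroblast and immune values was not tested.

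Genes of the melanoma cells moved in both directions. Of 23 melanocyte and pigment genes 3 were lower and 3 higher (median -0.09), against 2.42% and 8.57% of all genes. Tyr, the first enzyme of melanin synthesis, was at 319, 290 and 315 TPM in NT and at 241, 243 and 265 TPM in LEN tumors (-0.30, SE 0.07, adjusted p = 0.0329), and Pax3, a transcription factor of the lineage, fell by 0.35. Mlph, which tethers melanosomes to actin, was at 118, 111 and 116 TPM in NT and at 188, 219 and 200 TPM in LEN tumors (0.81, SE 0.07, adjusted p = 0.00246). Gpnmb, a melanosome glycoprotein that macrophages also make, rose from 1541, 1545 and 1549 TPM to 2171, 2133 and 2163 TPM (0.48, adjusted p = 0.0031). Tyrp1 (0.11, adjusted p = 0.581), Dct (-0.09, adjusted p = 0.387), Sox10 (-0.12, adjusted p = 0.448) and Mitf (-0.42, adjusted p = 0.0556) did not pass. Ednrb, an endothelin receptor that ECs also express, had the most negative change of the list and did not pass (-0.84, adjusted p = 0.0751). Leaving out 1 tumor at a time gave 0 to 3 pigment genes lower and 2 or 3 higher, and rescaling to protein-coding genes gave 6 lower and 3 higher. Of 9 tested neural crest-like genes only Tnc, a matrix glycoprotein that fibroblasts also make, was called (1.77).

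Cell cycle and DNA replication genes were lower in 15 of 34 cases and higher in 0 (median -0.35), against 2.42% and 8.57% of all genes, and all 34 changes were negative. Cdk1, the mitotic kinase, was at 158, 150 and 139 TPM in NT and at 104, 103 and 96.6 TPM in LEN tumors (-0.55, SE 0.07, adjusted p = 0.00576), and the mitotic kinases Plk1 (-0.48) and Aurka (-0.44) and the replication gene Gins2 (-0.48) fell too. The calls moved with the tumors and the scale: 3 without NT tumor 2, 4 without NT tumor 4, 20 without NT tumor 5, 2 without LEN tumor 2, 1 without LEN tumor 3 and 1 without LEN tumor 5, 28 with TPM rescaled to protein-coding genes and 1 in the fit of 72 tumors. Cdkn1a (p21), a p53 target that halts the cycle, was at 68.0, 61.1 and 60.1 TPM in NT and at 103, 128 and 127 TPM in LEN tumors (0.90, SE 0.10, adjusted p = 0.00399), 1 of 2 p53 targets called among 14 tested. Cholesterol synthesis genes were lower in 4 of 18 cases, against 2.42% of all genes, among them Insig1 (-0.78) and Hmgcs1 (-0.65). Leaving out single tumors gave 1 to 6 lower cholesterol synthesis genes and 1 to 3 higher p53 targets. Rescaling to protein-coding genes gave 10 lower cholesterol synthesis genes, and the fit of 72 tumors gave 4 higher p53 targets.

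Beside 2.42% of all genes called lower and 8.57% called higher, 6 of 15 immediate early stress response genes were higher, among them Zfp36 (1.26), Egr1 (1.07) and Junb (1.06), with 10 called without NT tumor 4 and 0 to 2 without any other single tumor. NRF2 targets were higher in 4 of 8 cases, led by Hmox1, heme oxygenase (0.99, adjusted p = 0.0142). Of 19 integrated stress response genes 3 were lower, the serine and folate enzymes Phgdh (-0.49), Mthfd2 (-0.42) and Psat1 (-0.33). Among 13 genes of ER chaperones and the unfolded protein response, Xbp1 was higher (0.33) and Sdf2l1 lower (-0.31). ERK pathway output genes gave 1 call in each direction of 13, Dusp5 (0.92) and Spry4 (-0.55), and the ERK phosphatase Dusp6 was at 87.1 to 97.2 TPM in NT and 84.3 to 96.6 TPM in LEN tumors. No nuclear subunit of oxidative phosphorylation was called (0 of 25 by limma, 3 at an unadjusted p under 0.05, median -0.04), whereas 4 of 9 subunits encoded in mitochondria were higher, mt-Co1 reaching 11627, 10267 and 10927 TPM from 5450, 6415 and 5960 TPM (0.88, adjusted p = 0.00286). Coagulation and fibrinolysis genes were higher in 5 of 12 cases, among them F13a1 (1.71), a transglutaminase of macrophages, and Thbd (1.02), the endothelial thrombin receptor. Leaving out 1 tumor at a time left 0 to 3 NRF2, 0 to 3 integrated stress response, 3 or 4 mitochondrial and 1 to 7 coagulation genes called. It left 0 or 1 unfolded protein response gene in each direction, and 1 ERK output gene higher and 0 or 1 lower. The fit of 72 tumors called 1 mitochondrial gene higher, and rescaling to protein-coding genes called 2 nuclear subunits of oxidative phosphorylation lower.

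**Figure D4:**
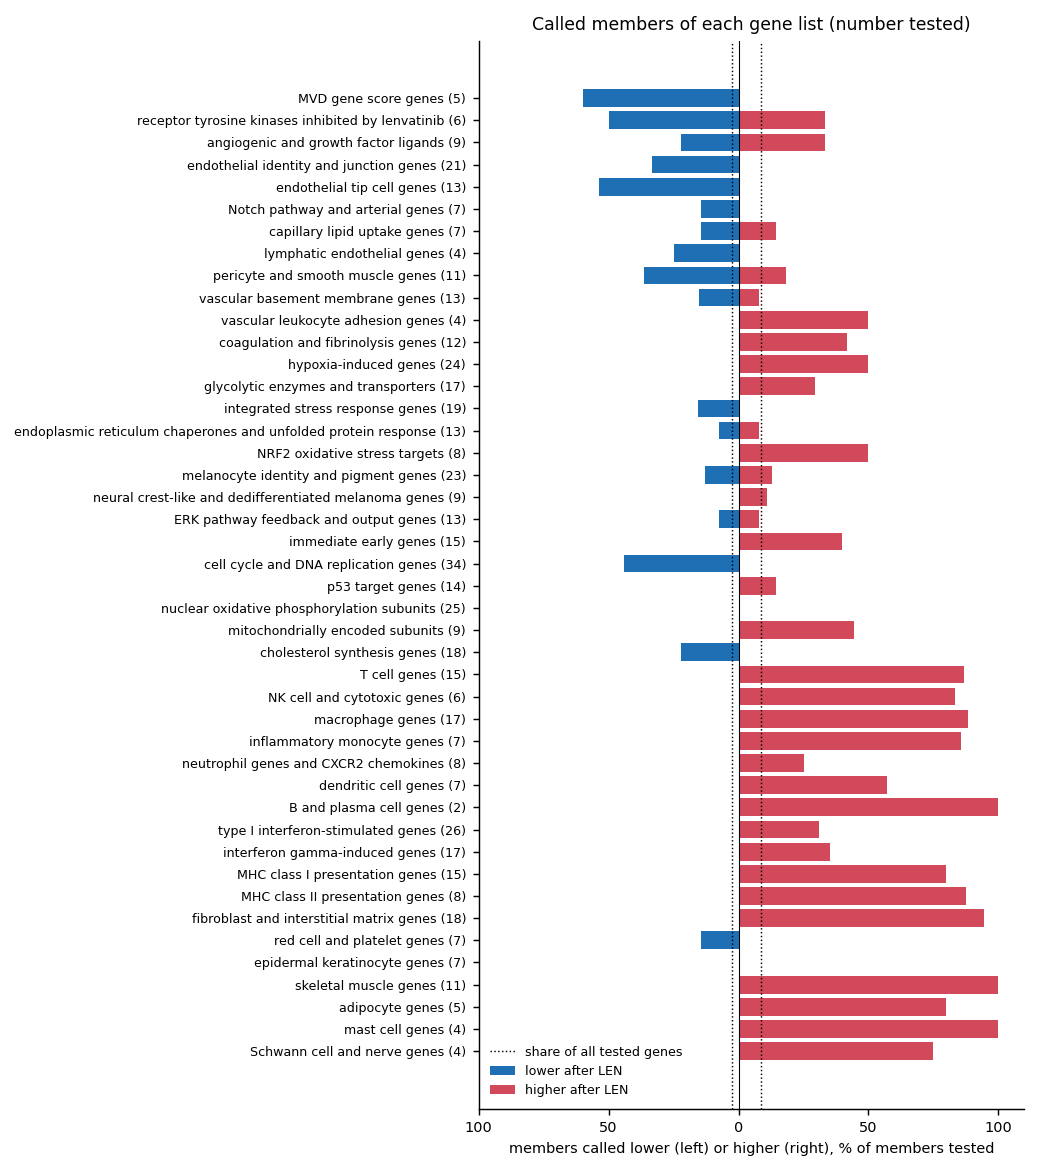
Share of the tested members of 44 gene lists that were called lower (blue, to the left) or higher (red, to the right) in LEN against NT tumors, in percent of the members tested, whose number is in parentheses; dotted lines mark the share of all tested genes, 2.42% lower and 8.57% higher. Lower calls reach 3 of 5 MVD score genes, 7 of 13 tip cell genes, 3 of 6 receptors and 15 of 34 cell cycle genes, and higher calls all 11 skeletal muscle genes and 17 of 18 fibroblast genes.

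To ask which changes differed between B16-F10 and the other models, the LEN effect in B16-F10 was tested against the mean LEN effect of the other 11 models in a joint fit of all 72 day 8 tumors. MC38 shared the C57BL/6NCrl host, and the others grew in BALB/cAnNCrlCrlj, C57BL/6JCrl, C3H/HeNCrl, DBA/2NCrl or C57L/J mice, so that apart from MC38 the model and the host strain cannot be told apart. Of 17351 genes tested, 147 (0.847%) had a lower and 1308 (7.54%) a higher LEN effect in B16-F10. The difference was in either direction for 8.39% of genes. The mean change of the MVD gene score in the other models was -0.67 (from -1.05 to -0.20), and the difference of 0.22 from B16-F10 did not pass limma's test (SE 0.16), except with Kdr left out of the score (0.36, SE 0.16). Of 24 EC genes in this fit 1 differed in effect, Flt1, which fell more in B16-F10 (difference -0.84, SE 0.24, adjusted p = 0.015). Sparcl1 was lower after LEN in 10 of the other 11 models, and B16-F10 differed from them by 0.95 (SE 0.21, adjusted p = 0.00116). For Eng the difference was 0.54 (adjusted p = 0.142).

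Some vessel genes fell further in B16-F10 than elsewhere. The difference was -2.21 for Igfbp3 (SE 0.18, adjusted p = 1.28e-12), whose mean change in the other models was -1.29, and -1.93 for Esm1 and -1.54 for Kcne3. Cck (-2.02), Zfp618 (-1.37) and Lmo1 (-1.12) also had a more negative effect, with mean changes of 0.26, 0.14 and -0.16 elsewhere. Fgfr1 and Pdgfra both differed upward by 1.10, and Pgf by 1.58, whereas Vegfa, which was higher after LEN in all 11 other models, differed by 0.11 (adjusted p = 0.901). Of 13 tip cell genes 3 had a lower effect in B16-F10 (Esm1, Kcne3 and Pdgfb) and Mcam, also a melanoma cell adhesion gene, a higher one (1.37). Among all genes 0.847% had a lower and 7.54% a higher effect. Of 34 cell cycle genes 0 differed in effect in this limma fit, 0 also at an unadjusted p under 0.05. Of 26 hypoxia genes 2 had a higher effect (Angptl4 and Loxl2), near the share of 7.54% of all genes.

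Many immune and fibroblast genes differed in effect. The effect was higher in B16-F10 for 15 of 15 MHC class I genes, 8 of 9 class II genes, 16 of 19 interferon γ-induced genes, 21 of 26 type I interferon-stimulated genes, 14 of 18 macrophage genes, 6 of 7 monocyte genes, 8 of 17 T cell genes and 17 of 19 fibroblast genes, against 7.54% of all genes. It was higher for 3 of 9 dendritic cell genes and 1 of 12 neutrophil genes. The macrophage gene C1qb changed by a mean of -0.57 in the other models, and the difference was 2.25 (SE 0.24, adjusted p = 1.66e-09). The list median of the macrophage genes was 1.49 in B16-F10 and from -1.08 to 0.57 in the others. For MHC class I genes it was 2.02 in B16-F10 and from -0.20 to 0.59 in the others. For class II genes the median was 2.19 in B16-F10 and -0.84 to 1.71 in the others, and for interferon γ-induced genes 2.41 and -0.51 to 1.27. It was 1.86 and -0.37 to 1.12 for NK cell and cytotoxic genes, and 1.53 and -0.68 to 0.91 for type I interferon-stimulated genes. EMT6 was the highest of the others in the first 3 of these and Renca in the last.

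The muscle and adipocyte lists also differed, 11 of 12 and 3 of 4 genes having a higher effect in B16-F10, against 7.54% of all genes. Here 1 other model stood with it. In the liver tumor model BNL 1ME A.7R.1 the list medians were 4.49 for skeletal muscle and 3.46 for adipocyte genes, against 3.36 and 2.49 in B16-F10. In that model the medians were also 2.19 for mast cell, 1.42 for MHC class II, 1.21 for monocyte, 0.83 for interferon γ-induced, 0.78 for dendritic cell, 0.67 for T cell, 0.61 for type I interferon-stimulated and 0.60 for NK cell and cytotoxic genes. They were 0.22 for macrophage, 0.07 for MHC class I and -0.14 for fibroblast genes. In the joint fit, 1 LEN tumor of the 4T1 model stood apart, with 27.5% of its TPM in protein-coding genes. Without that model 269 genes had a lower and 1477 a higher effect in B16-F10.

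**Figure D5:**
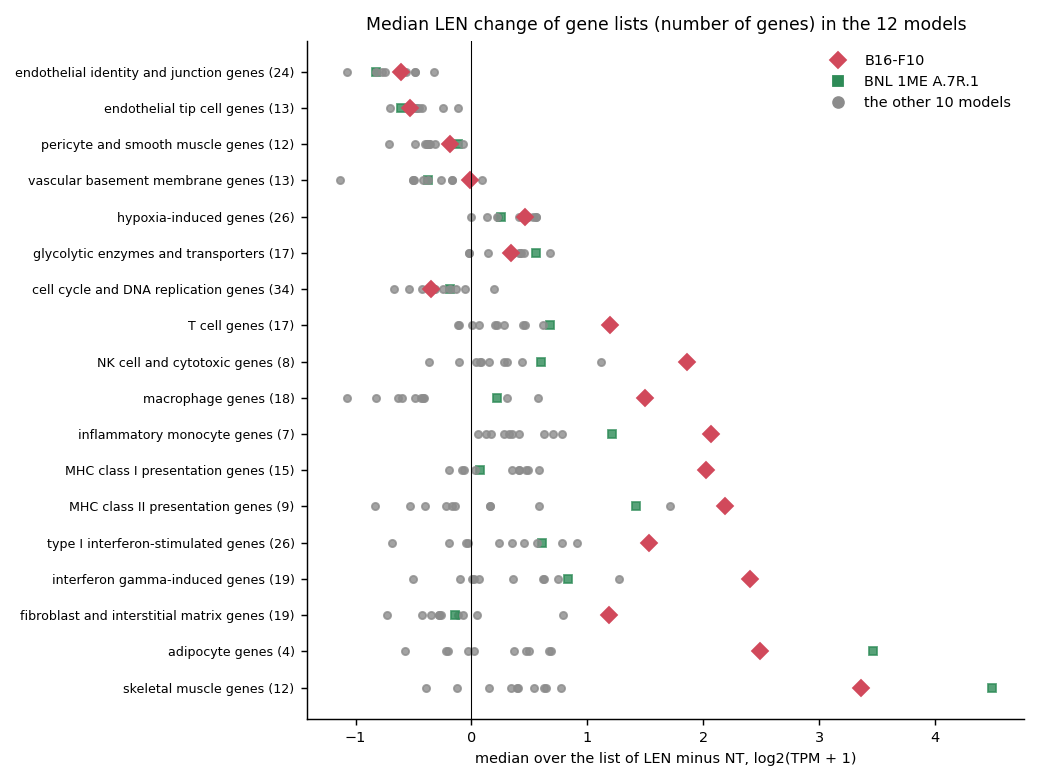
Median LEN minus NT change of 18 gene lists, on the log2(TPM + 1) scale, in each of the 12 models (3 LEN and 3 NT tumors each); diamonds are B16-F10, squares BNL 1ME A.7R.1 and circles the other 10 models, with the number of genes in parentheses. B16-F10 lies within the other models for endothelial, tip cell, hypoxia and cell cycle genes and above all of them for the T cell, NK cell, macrophage, monocyte, MHC, interferon and fibroblast lists plotted.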

How the data were processed

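Total RNA of each tumor was sequenced after rRNA depletion. The authors trimmed reads with Trimmomatic 0.36, aligned them with STAR 2.5.2b to the mouse genome (GRCm38/mm10) and estimated expression with RSEM 1.2.31, and the deposited table holds TPM per gene and tumor. TPM keeps no read counts, so no depth, counting interval or count model was available.

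TPM were transformed as log2(TPM + 1). Genes with a mean of at least 1 TPM over the 6 tumors were tested with limma 3.58.1 (R 4.3.3) with a mean-variance trend and Benjamini-Hochberg adjustment at 0.05. The MVD gene score entered the fit as a row of its own, with its unadjusted p. A joint fit of the 72 day 8 tumors in 24 groups tested the LEN effect in B16-F10 against the mean effect of the other 11 models. The fits were tested on simulated data. Gene positions came from GENCODE M21 (GRCm38), matched for 50376 of 50686 genes, and promoters from RefSeq (GRCm38.p6). Of the 44 gene lists, members and named genes, all were chosen with earlier results of these data known.

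The rule for named genes took the 12 protein-coding genes with the largest called fall and rise without overlap and at least 5 TPM in the higher group, up to 4 members per list, the score, receptor and melanocyte genes, and the 8 largest differences from other models in each direction, and the text names part of these. Pecam1, Rn7s1, Mcam, Ednrb and the groups under other observations were chosen after their values were seen. Alternatives were a pseudocount of 0.1, upper-quartile and protein-coding rescaling, no trend, no minimum or a minimum of 5 TPM, a replicate block, a fit of all 72 tumors, and leaving out single tumors, score genes or models. Summaries used Python 3.11.15 with pandas 2.3.3. Replicate numbers do not pair NT with LEN mice, and tumors with the same number did not deviate together from their group means (r = -0.0317 for tumors 2 and -0.0647 for tumors 5).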

Additional observations from a re-analysis of the deposited data

Results flagged for a closer look

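Of the genes named above, 69 had a LEN effect in B16-F10 that differed from the mean effect of the other 11 models (adjusted p under 0.05 by limma in the joint fit of 72 tumors). Each value below is the B16-F10 effect minus that mean, on the log2(TPM + 1) scale. The effect was more negative in B16-F10 for the endothelial and vessel genes Igfbp3 (-2.21), Esm1 (-1.93), Kcne3 (-1.54), Gpihbp1 (-1.01), Flt1 (-0.84) and Pdgfb (-0.58). It was also more negative for Cck (-2.02), Zfp618 (-1.37), Lmo1 (-1.12) and Phgdh (-0.47). The melanocyte genes Tyr (-0.30) and Pax3 (-0.30) also had a more negative effect, but Tyr was at 0.69 TPM or less in every tumor of the other models.

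The effect was more positive for the receptor, ligand and vessel wall genes Fgfr1 (1.10), Pdgfra (1.10), Ret (0.45), Pgf (1.58), Sparcl1 (0.95), Des (1.88), Anpep (1.15), Mcam (1.37), Thbd (1.04), Icam1 (1.58) and Selp (1.14). Ret was under the minimum level for testing in B16-F10 alone. Among matrix and fibroblast genes the effect was more positive for Dcn (2.59), Col3a1 (2.37), Lox (2.08), Lum (1.85), Sparc (1.16), Tnc (1.59) and Loxl2 (1.40). For genes of myeloid and other immune cells it was more positive for C1qb (2.25), Spp1 (1.44), Ccr2 (2.52), Ly6c2 (1.76), F13a1 (2.09), Mmp9 (1.24), Irf8 (2.37), Ccr7 (1.05), Cd3e (1.32), Gzmb (1.81) and Ighm (2.06). The antigen presentation and interferon-induced genes were H2-Aa (2.57), H2-Eb1 (2.44), Cd74 (2.48), H2-T23 (2.34), Tap1 (1.96), Cxcl10 (2.26), Irf1 (1.86) and Isg15 (1.48). Of the stress, growth and hypoxia genes, Slc16a3 (0.65), Angptl4 (1.17), Cdkn1a (0.54), Dusp5 (0.72), Zfp36 (1.07), Egr1 (1.05) and Junb (0.73) differed in the same direction. The muscle genes Acta1 (3.98), Tnnt3 (3.09), Tnni2 (2.75), Tnnc2 (2.72), Myl1 (2.70), Myh4 (2.48), Ckm (2.43) and Atp2a1 (2.40), the adipocyte genes Cfd (2.62), Car3 (2.501) and Adipoq (1.53), and Saa3 (2.39) and C3 (2.49) also had a more positive effect, and the part of these tissues in the other differences was not tested.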

How the results depend on the processing

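Calls rest on the spread that limma shares between genes, with 3 tumors per group. The called total of 1742 stayed within 1.5 times under both rescalings, the pseudocount, the minimum levels, the trend and the fit of 72 tumors. With 1 tumor left out it was 681 to 1581, with 96 to 282 genes lower and 565 to 1332 higher. With the replicate block it was 672, 71 lower and 601 higher, although the numbers do not pair the tumors. Protein-coding rescaling gave 967 lower genes. The median change of all genes was -0.04 to 0.05 over these settings. The MVD gene score stayed lower under each setting (-0.61 to -0.29, block -0.53). Against the other models, 147 genes had a lower effect in B16-F10, and this count was 385 with protein-coding rescaling, 421 with no minimum, 76 with a minimum of 5 TPM, 269 without 4T1, and 70 to 127 with 1 tumor left out. Of the named called genes 62 of 146 lost their call with the block, 10 of 146 without NT tumor 4 and 52 to 68 without any other tumor, and 0 changed direction in these limma fits. The cause was not tested.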

Other observations

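The groups below were chosen after their values were seen. Complement genes rose beside the macrophage list: 15 of 16 tested were higher in LEN tumors and 0 lower (median 1.67), against 8.57% and 2.42% of all genes. C3, the central component, was at 2.35, 7.20 and 3.85 TPM in NT tumors and at 44.7, 40.4 and 44.1 TPM in LEN tumors (3.11, adjusted p = 0.0029). C4b changed by 2.31 and Cfb by 1.98. Of the acute phase genes all 7 tested were higher, among them Saa3, at 5.02, 7.57 and 10.2 TPM in NT and 67.6, 62.6 and 104 TPM in LEN tumors (3.21, adjusted p = 0.00245), and Lcn2 (2.07). Of 13 tested C-C chemokines 11 were higher (median 1.55), led by Ccl8, at 19.4, 21.8 and 11.9 TPM in NT and 126, 90.5 and 101 TPM in LEN tumors (2.54). Treatment-naive tumors held 78.0 to 112 TPM of Ccl8, above every NT tumor. Insulin-like growth factor-binding proteins were split. Against the fall of Igfbp3, Igfbp5 was at 0.96, 0.71 and 0.54 TPM in NT and 8.69, 9.20 and 8.09 TPM in LEN tumors (2.48, adjusted p = 0.000657) and Igfbp6 changed by 1.79, while Igfbp4 (-0.04, adjusted p = 0.896) and Igfbp7 (0.03, adjusted p = 0.893) did not pass.

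Some genes of S phase were lower. Of the MCM helicase genes, which the cell cycle list above also holds, 4 of 6 were lower and 0 higher (median -0.32), Mcm2 being at 151, 147 and 132 TPM in NT and 104, 117 and 112 TPM in LEN tumors (-0.36, adjusted p = 0.0289). Of 63 tested replication-dependent histone genes, whose mRNAs lack poly(A) tails and are kept by rRNA depletion, 28 were lower and 0 higher (median -0.35, from -0.78 to 0.80), against 2.42% and 8.57% of all genes. Hist1h4a was at 558, 530 and 510 TPM in NT and 299, 347 and 286 TPM in LEN tumors (-0.78). Small nucleolar RNAs had 21 of 217 lower and 1 higher (median -0.54), and small nuclear RNAs had 10 of 103 lower and 0 higher (median -0.44). The TPM of such short transcripts are scaled by a short length, and how evenly the libraries captured them was not tested.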
